A study of Mus musculus with 6 samples.

Results

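The 10 genes described here encode immediate early transcription factors: the Fos family (Fos, Fosb, Fosl1, Fosl2), the Jun family (Jun, Junb, Jund), the zinc finger factors Egr1 and Egr2, and Ier2. They were listed by name and found by gene symbol on the array. No threshold was applied to pick them, but the list was chosen with earlier results of these data known. All 10 were among the 19505 genes measured, each by 1 probe set. The cells were 393P, a mouse lung adenocarcinoma line (some labels write 9393P), stably transfected with AC9 or with an empty VECTOR, with 3 samples a group and 1 Affymetrix Clariom S array a sample. The sample titles read AC9 overexpression and Empty VECTOR. AC9 is not spelled out in the labels. The reference gene table lists it as another name of Adcy9, the gene of the cAMP-producing enzyme adenylyl cyclase 9. Both groups were grown in RPMI with serum, and both went through jetPRIME transfection and selection with puromycin or G418. The sources used here give neither the drug of each group nor whether the lines are clones or pools, so drug, clone and AC9 cannot be told apart in what follows. No label states that replicates were separate cultures, so the p-values rest on a spread between samples that may be technical.

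Immediate early genes are switched on within minutes of a growth factor, cAMP or stress signal without new protein synthesis, and most return quickly to a low level. Their promoters carry sites for factors that are already present: CREB, which protein kinase A activates when cAMP rises, and serum response factor with its ETS partners, which ERK activates. Fos and Jun proteins pair through a leucine zipper to form AP-1, and the make-up of the pair sets how strongly it acts. Fos and Fosb carry strong activation domains, Fosl1 and Fosl2 lack them, and Fosl1 is a lasting target of ERK signalling in many epithelial tumours.

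RefSeq (GRCm38.p6) gave a promoter window for 7 of the 10 genes. The 250 bases before each start were searched on both strands for the full cAMP response element (TGACGTCA), its core (TGACG), the AP-1 site (TGANTCA), the EGR site (GCGNGGGCG) and, by name, the CArG box that serum response factor binds. The full element contains the core, and the core was added to the search after the windows were seen. The core was present in 4 of the 7 genes (Fos, Fosb, Junb and Egr2) and in 17.8% of all 32851 windows in the table. A gene was counted if any of its windows held the motif, whereas the shares are per window, and Egr2 has several windows. The EGR site was present in Fosb and Fosl2 and in 4.70% of all windows, and the CArG box in Egr2, which has 5 listed starts, and in 1.47% of windows. The full element and the AP-1 site were in 0 of the 7 genes, against 1.55% and 6.75% of windows. A match is a description of the letters and not a bound site. Only exact matches in the 250 bases were counted, so variant letters and sites further from the start were not searched. The 150 bases before the start are shown for Fosb and Jun, which rose in the AC9 cells, Fosl2, which fell, and Fos, which did not pass the test. Capitals mark cores of the cAMP response element and EGR sites.
Fosb, chr7:19310046-19310195, minus strand: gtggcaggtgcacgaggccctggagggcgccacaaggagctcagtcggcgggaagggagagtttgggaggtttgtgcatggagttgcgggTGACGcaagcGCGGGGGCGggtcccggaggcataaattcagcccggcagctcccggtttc
Jun, chr4:95052223-95052372, minus strand: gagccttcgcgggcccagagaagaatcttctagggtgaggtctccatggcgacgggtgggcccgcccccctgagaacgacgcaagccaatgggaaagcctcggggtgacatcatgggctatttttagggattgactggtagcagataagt
Fosl2, chr5:32136322-32136471, plus strand: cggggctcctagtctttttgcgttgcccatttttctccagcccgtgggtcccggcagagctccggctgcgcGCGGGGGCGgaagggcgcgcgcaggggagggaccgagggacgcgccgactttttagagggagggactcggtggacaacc
Fos, chr12:85473740-85473889, plus strand: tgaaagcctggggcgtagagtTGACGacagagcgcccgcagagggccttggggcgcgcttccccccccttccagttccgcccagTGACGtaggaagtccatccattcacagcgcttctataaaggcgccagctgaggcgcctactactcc
Fosb, which rose, and Fosl2, which fell, both hold the EGR letters GCGGGGGCG, at 50 to 42 and 79 to 71 bases before their starts. Fos has cores at 129 to 125 and 66 to 62 bases before its start, and Fosb has a core at 60 to 56. The Jun window holds no exact match to the motifs searched. It does hold TGACATCA, a variant of the full element TGACGTCA.

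The values are deposited log2 intensities made with RMA, on which 1 unit is a doubling. The arrays resembled each other in overall level, with medians over genes of 6.42 to 6.46, and correlations across genes were 0.994 to 0.996 within and 0.985 to 0.988 between the groups (genes are not independent replicates). A bound for dim signals, the 90th percentile of the negative control probe sets averaged over arrays, was 6.06. Adcy9 itself read 6.73 ± 0.12 in AC9 and 6.12 ± 0.03 in VECTOR (SD, n = 3). Its log2 change was 0.61, and it was called higher (limma adjusted p 0.00264). Adcy9 was dim in both groups. The VECTOR mean was just above the bound, and both means were under the 95th percentile of the negative controls, 6.81. Of 8 epithelial markers, 0 lay under the bound in both groups (Cdh1 read 12.61 in AC9 and 12.84 in VECTOR, and Krt8 11.82 and 11.87). Of these markers 3 were called higher in AC9 (37.5%, against 8.26% of all genes) and 1 lower (12.5%, against 9.29%). Cldn4 rose by 0.50, Krt7 by 0.48 and Epcam by 0.44 on the log2 scale, and Krt19 changed by -0.47 (limma adjusted p 0.0189, 0.0119, 0.0292 and 0.00873). The part of these markers in the changes of the 10 factors was not tested. Under the bound in both groups were 5 of 7 lung lineage markers, among them Nkx2-1 at 4.64 and 4.61 and Sftpc at 3.95 and 4.15. All 6 leukocyte, all 8 endothelial and 6 of 7 fibroblast markers also lay under it, the exception being Col1a1 at 7.01 and 6.95. The mean level of these lists on an array was 4.63 to 4.76 in AC9 and 4.50 to 4.70 in VECTOR for leukocytes, 4.39 to 4.49 and 4.30 to 4.43 for endothelium, and 5.26 to 5.34 and 5.24 to 5.32 for fibroblasts.

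Egr1, Fosb, Fosl1, Ier2 and Jun rose in the AC9 cells, Fosl2 fell, and Fos, Junb, Jund and Egr2 did not pass the test. The changes were modest, the largest being 1.61-fold upward for Egr1 and 1.60-fold downward for Fosl2. By limma at an adjusted p of 0.05 over all genes, 5 of the 10 were called higher, against 8.26% of all genes, and 1 was called lower, against 9.29%. The 3 AC9 arrays lay wholly above the 3 VECTOR arrays for 6 of the genes, as for 17.3% of all genes, and wholly below for 2, as for 17.7%. The median log2 change was 0.28 over the 10 and 0.02 over all genes. Mean levels of the 10 lay above the dim-signal bound in both groups. The shares over all genes, here and for the lists below, include 8646 genes under that bound in both groups. With those genes left out, the 10 and 10849 other genes remained. Of these, 2070 were called higher and 2343 lower, among them 5 and 2 of the 10. The share called among the brighter genes was thus larger than that over all genes. For calls lower, the 2 of 10 lay near that larger share.

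**Figure D1:**
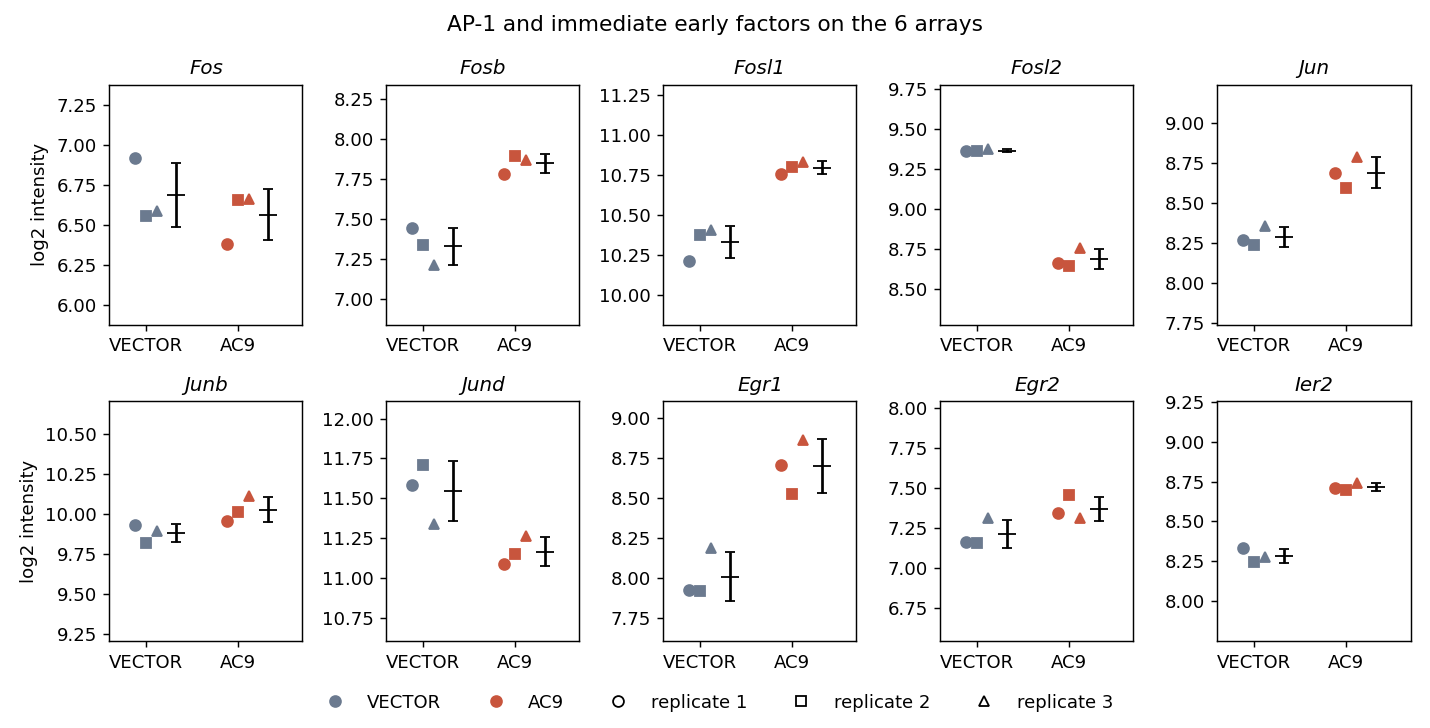
Log2 intensity (y axis, each panel spanning the same 1.5 units) of the 10 genes on each of the 3 VECTOR and 3 AC9 arrays; marker shapes give the replicate number, and the black bar is the group mean ± SD. The groups are apart for all but Fos and Egr2, and Fosl2 and Jund are the 2 that are lower in AC9.

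In the Fos family the 4 genes moved in both directions. Fosb (probe set TC0700002477.mm.2), a close relative of Fos with a strong activation domain, read 7.78, 7.89 and 7.87 on the AC9 arrays and 7.44, 7.33 and 7.21 on the VECTOR arrays. Every AC9 array was above every VECTOR array, with a gap of 0.34 between the nearest pair. This amounted to a rise of 1.43-fold, a log2 change of 0.52 (SE 0.10, limma adjusted p 0.00629).

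Fosl1 (TC1900000067.mm.2), which encodes Fra-1, read 10.76, 10.80 and 10.83 on the AC9 arrays and 10.21, 10.37 and 10.41 on the VECTOR arrays. The AC9 arrays were again all higher and closer together, with SDs of 0.04 in AC9 and 0.10 in VECTOR. Fosl1 thus rose 1.38-fold, or by 0.47 on the log2 scale (SE 0.09, limma adjusted p 0.00881).

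Fosl2 (TC0500000334.mm.2), which encodes Fra-2, went the other way. It read 8.67, 8.65 and 8.76 on the AC9 arrays and 9.36, 9.36 and 9.38 on the VECTOR arrays. The VECTOR arrays were almost identical, and the groups were 0.60 apart at their nearest points, the widest gap of the 10 genes. Its log2 change was -0.68 (SE 0.09, limma adjusted p 0.000920), a 1.60-fold decrease, with a 95% interval of -0.87 to -0.48.

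Fos (TC1200000833.mm.2), the founding member of the family, read 6.38, 6.66 and 6.66 on the AC9 arrays and 6.92, 6.56 and 6.59 on the VECTOR arrays. The groups overlapped, and the lowest AC9 and the highest VECTOR array both carried replicate number 1. The estimate was a log2 change of -0.12 with a 95% interval of -0.41 to 0.17 (limma adjusted p 0.590), so a change of up to 1.33-fold downward or 1.12-fold upward was within the error. Fos was also dim: both group means, 6.57 and 6.69, lay above the 90th percentile of the negative controls but under their 95th percentile.

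Of the Jun family, which can pair with itself as well as with Fos proteins, 1 gene passed the test. Jun (TC0400003079.mm.2) read 8.69, 8.59 and 8.79 on the AC9 arrays and 8.27, 8.24 and 8.36 on the VECTOR arrays. The AC9 arrays were all higher, with a gap of 0.23. Jun rose 1.32-fold, by 0.40 on the log2 scale (SE 0.10, limma adjusted p 0.0182). That call did not hold without VECTOR replicate 1 or 2 or AC9 replicate 1 or 3 (adjusted p 0.0539, 0.0557, 0.0615 and 0.0733), while the log2 change in these fits stayed between 0.35 and 0.40.

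Junb (TC0800002597.mm.2), a weaker activator that can restrain Jun, read 9.96, 10.01 and 10.11 on the AC9 arrays and 9.93, 9.82 and 9.89 on the VECTOR arrays. The groups were separated by only 0.03. Junb had a log2 change of 0.14 with a 95% interval of -0.06 to 0.35, and the gene was not called (limma adjusted p 0.339).

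Jund (TC0800000760.mm.2), the most constantly expressed Jun protein in many cells, read 11.09, 11.15 and 11.26 on the AC9 arrays and 11.59, 11.71 and 11.34 on the VECTOR arrays. The AC9 arrays were all lower, and VECTOR replicate 3 came within 0.08 of the nearest AC9 array. Its log2 change was -0.38 (SE 0.12) with a 95% interval of -0.64 to -0.12, and the limma adjusted p of 0.0521 narrowly missed the threshold. Without VECTOR replicate 3 the log2 change was -0.48 and passed (adjusted p 0.0216).

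**Figure D2:**
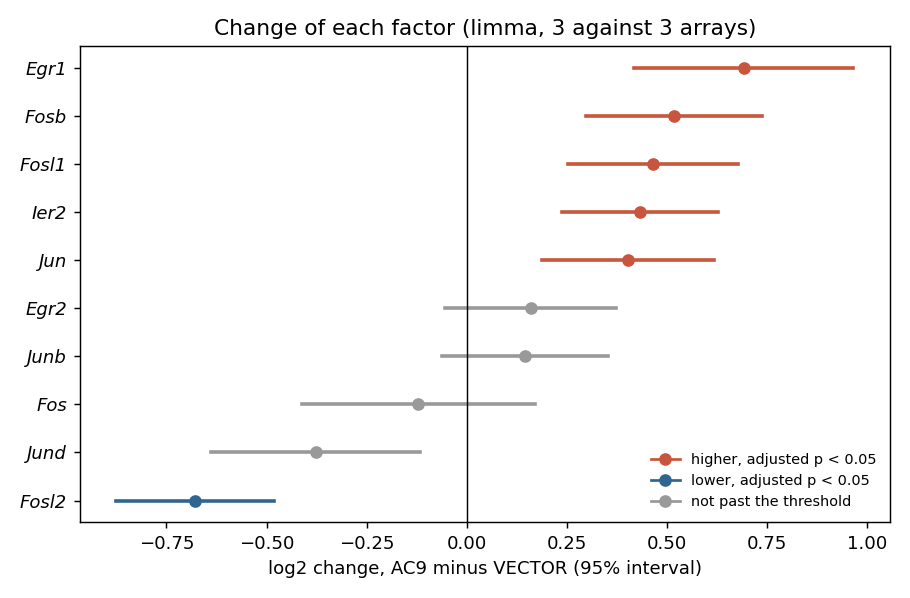
Log2 change (x axis, AC9 minus VECTOR) of each gene with its 95% interval from limma, ordered by size; colours show which passed an adjusted p of 0.05. Egr1 is at 0.69 and Fosl2 at -0.68, and the intervals of Fos, Junb and Egr2 include 0.

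Egr1 (TC1800000301.mm.2), a zinc finger factor induced by growth factors through ERK, had the largest rise of the 10. It read 8.71, 8.52 and 8.86 on the AC9 arrays and 7.92, 7.91 and 8.18 on the VECTOR arrays. All AC9 arrays were higher although the spread in both groups was wide (SD 0.17 and 0.15). Egr1 rose 1.61-fold (95% interval 1.34-fold to 1.95-fold), a log2 change of 0.69 (SE 0.12, limma adjusted p 0.00451).

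Egr2 (TC1000000636.mm.2), its relative best known from myelinating Schwann cells, read 7.34, 7.46 and 7.31 on the AC9 arrays and 7.16, 7.16 and 7.31 on the VECTOR arrays. The groups met at VECTOR replicate 3 and AC9 replicate 3, both at 7.31. The difference of the means was 0.16 on the log2 scale with a 95% interval of -0.06 to 0.37 (limma adjusted p 0.309).

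Ier2 (TC0800002585.mm.2), a small immediate early protein that is neither an AP-1 nor an EGR factor, read 8.71, 8.69 and 8.74 on the AC9 arrays and 8.33, 8.24 and 8.28 on the VECTOR arrays. The arrays of each group were close together (SD 0.02 and 0.04) and the groups were 0.36 apart. Ier2 rose 1.35-fold, by 0.43 on the log2 scale (SE 0.09, limma adjusted p 0.00855).

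To compare relatives, the log2 ratio of each pair within a family was taken on each array and compared between the groups, which cancels a shift common to an array. Among the 10 pairs, the groups did not overlap for 9. The pairs share genes, and each change is the difference of the log2 changes already given, so this count is not a separate result. The share among pairs of other genes was not computed. The ratio of Fosl1 to Fosl2 was higher in AC9 by 1.14 ± 0.06 (SE), with AC9 arrays at 1.13, 1.19 and 1.11 and VECTOR arrays at -0.11, 0.05 and 0.07 relative to the VECTOR mean. Fosb to Fosl2 was higher by 1.20 ± 0.08, Jun to Jund by 0.78 ± 0.15, Jun to Junb by 0.26 ± 0.06 and Egr1 to Egr2 by 0.53 ± 0.15. The ratio of Fos to Fosb was lower, with a change of -0.64 ± 0.10. Fosb to Fosl1 changed by 0.05 ± 0.12, with overlapping groups (two-sided exact permutation p 0.7). Each pair without overlap had a two-sided exact permutation p of 0.1, the smallest that 3 arrays against 3 allow, or 0.111 adjusted over the 10 pairs, so this test cannot reach 0.05.

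**Figure D3:**
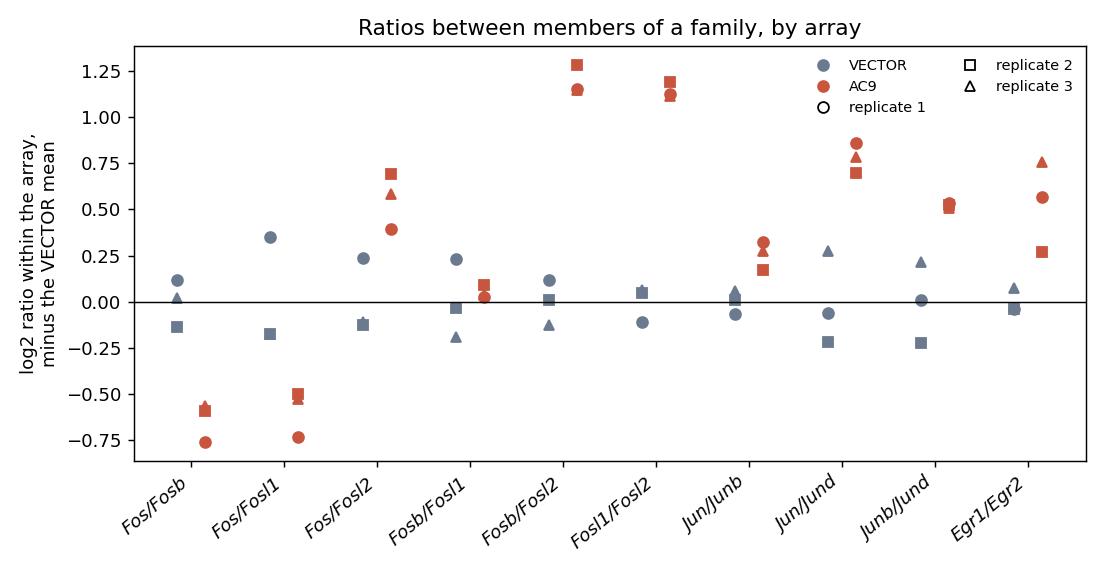
Log2 ratio of each pair of relatives on each array (y axis), less the mean of the VECTOR arrays, for the 10 pairs within the Fos, Jun and EGR families. Fosl1/Fosl2 and Fosb/Fosl2 show the widest separation, at 1.11 to 1.28 in AC9, and Fosb/Fosl1 overlaps.

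The genes also varied among the arrays of a group. AC9 replicate 3 was the highest AC9 array for 8 of the 10 genes, all but Fosb and Egr2, with a median deviation of 0.08 from the group means. The same counts over all genes were not computed, so they may reflect the arrays rather than these genes. AC9 replicate 1 was the highest for 0 and the lowest for 5. In VECTOR, replicate 2 was the lowest for 6 genes and replicate 3 the highest for 5, including Egr1 (0.18 above its group mean) and Egr2 (0.10 above). Egr1 stood 0.17 above its group mean on AC9 replicate 3 and 0.18 below it on AC9 replicate 2. For each of the 6 genes that passed the test, these deviations were smaller than the differences between groups, which passing the test largely entails.

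Other immediate early genes moved in both directions. Of 46 measured, 9 rose (19.6%, against 8.26% of all genes) and 7 fell (15.2%, against 9.29%), with a median log2 change of 0.14. The furthest were upward: Ptgs2, the inducible prostaglandin synthase, by 1.45, the kinase Plk2 by 1.41, the EGF receptor inhibitor Errfi1 by 0.99 and the matricellular Ccn2 by 0.77 (limma adjusted p 2.57e-05, 2.23e-05, 0.000466 and 0.000724). The largest fall, named after its value was seen, was that of the NF-kB inhibitor Nfkbia at -0.76. Without AC9 replicate 1, 4 rather than 7 fell. Leaving out any 1 array lowered the calls over all genes too, from 1612 to between 968 and 1491 higher and from 1812 to between 1206 and 1534 lower. This holds for the lists below as well. Several textbook members did not pass: Nr4a1 had a log2 change of -0.10, Atf3 0.31, Myc 0.21, Dusp1 -0.24 and Egr3 0.30 (adjusted p 0.519, 0.0957, 0.141, 0.110 and 0.194; also named after their values were seen).

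Among 17 further bZIP factors, which share the leucine zipper and of which several can pair with AP-1 proteins, 3 rose and 3 fell (17.6% each, against 8.26% and 9.29% of all genes; median 0.06). The falls were the largest: Cebpd, a C/EBP factor of inflammation and differentiation, changed by -1.70 (SE 0.09, limma adjusted p 1.20e-05) and Maf by -1.40 (SE 0.10, adjusted p 4.64e-05). Cebpd went from 9.76 in VECTOR to 8.05 in AC9, and Maf from 8.39 to 6.99. Batf, a partner of Jun proteins in lymphocytes, rose by 0.52 and Nfil3, a repressor, by 0.47 (adjusted p 0.0114 and 0.0113). The remaining calls, given for completeness after their values were seen, were Ddit3 at 0.37 and Maff at -0.38. Without AC9 replicate 1, 1 rather than 3 rose, and Batf lost its call (adjusted p 0.0502). Nfil3 and Maff were also among the other immediate early genes.

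Of 29 kinases and promoter factors that act upstream, 2 rose and 0 fell by limma, with a median of 0.05. At an unadjusted limma p under 0.05, 6 rose and 4 fell, against 2926 and 2978 of all 19505 genes. The share that rose, 6.90%, was near the 8.26% of all genes, and the 0 that fell stood against 9.29%. Rps6ka3, the ERK-activated kinase RSK2 that phosphorylates CREB and Fos, rose by 0.72 (SE 0.11, adjusted p 0.00221). Gsk3b, which marks Jun for degradation, rose by 0.29 (adjusted p 0.0467) and was not called in any fit that left out 1 array (adjusted p 0.0747 to 0.130) nor with the replicate number as a block (0.0867) or repeated quantile normalization (0.0935). The number that rose was 1 without VECTOR replicate 1 or 2 or any of the AC9 replicates and 3 without VECTOR replicate 3, and 1 fell without VECTOR replicate 1 or AC9 replicate 3. The factors that bind the Fos and Egr1 promoters had log2 changes of -0.02 for Srf, -0.05 for Elk1 and 0.28 for Creb1, and Nab2, a co-repressor that EGR factors induce, had -0.49 (adjusted p 0.925, 0.783, 0.127 and 0.0550). These 4 were named after their values were seen.

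Of 38 measured genes known as AP-1 targets, 15 rose (39.5%, against 8.26% of all genes) and 5 fell (13.2%, against 9.29%), with a median of 0.23. This list, like the other lists, was chosen with earlier results of these data known, so its shares are a description only. Besides Ptgs2, also in the list above, the cytokine Lif rose by 1.39 and the integrin Itga2 by 1.29 (adjusted p 5.88e-05 and 8.80e-05). Sprr1a, a cornified envelope protein, was at least 1.64-fold higher (adjusted p 5.88e-05); its VECTOR mean lay under the bound, so its place among the rises is not known. Those that fell, named after their values were seen, were the matrix protein Tnc at -1.03, the collagenase Mmp13 at -0.76, Dmtn at -0.52, Mt2 at -0.45 and the hyaluronan receptor Cd44 at -0.39. Of the list, 10 genes lay under the bound in both groups. Without AC9 replicate 1, 3 rather than 5 fell.

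Genes of heat shock and handling stress, which also respond quickly to stress, moved in both directions. Of 12 measured, 4 rose and 4 fell (33.3% each, against 8.26% and 9.29% of all genes; median 0.07), and the mean level on an array was 9.33 to 9.36 in AC9 and 9.39 to 9.43 in VECTOR. Dnajb4 changed by -0.95, Hspb1 by -0.70, Dnajb1 by -0.45 and Hspd1 by 0.51 (limma adjusted p 0.000762, 0.0283, 0.0131 and 0.00627). Hspb1 lost its call without VECTOR replicate 1 or 2 or AC9 replicate 1 or 3 (adjusted p 0.0732, 0.0917, 0.0793 and 0.0674). The number that rose was 1 without VECTOR replicate 2, AC9 replicate 1 or AC9 replicate 2, and 2 without VECTOR replicate 3 or AC9 replicate 3, with repeated quantile normalization or with the replicate block; the number that fell was 2 without VECTOR replicate 2 or AC9 replicate 1. Mitotic genes moved with the group as well: all 19 measured were called higher in AC9, against 8.26% of all genes. Their median was 1.59, with mean levels of 8.96 to 8.99 in AC9 and 7.24 to 7.43 in VECTOR. The most changed were Kif11, Bub1, Mki67 and Cenpe, at 2.38, 2.14, 2.12 and 2.09. Their part in the changes of the 10 factors was not tested.

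**Figure D4:**
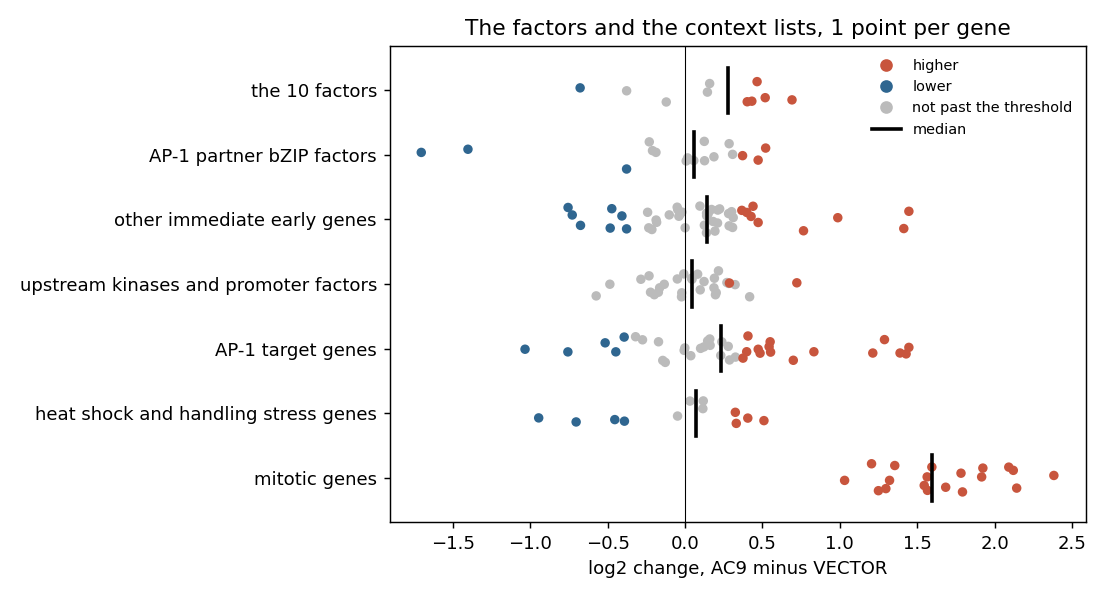
Log2 change (x axis, AC9 minus VECTOR) of each gene in the 10 factors and in 6 lists of related genes, 1 point per gene with the median as a black bar; vertical scatter within a row has no meaning. The medians are 0.28 for the factors, 0.23 for AP-1 targets and 1.59 for mitotic genes, and calls in both directions appear in all rows but those of the upstream and the mitotic genes.

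The genes whose pattern over the 6 arrays was most like that of Egr1, by the root mean square difference of log2 values centred on each gene's mean among 10849 genes above the bound, were Cep162 (0.0450), Spry4 (0.0525), Stk17b (0.0542), Dhrs9 (0.0632) and Sgtb (0.0671). Their log2 changes were 0.70, 0.65, 0.75, 0.65 and 0.76. Changes near that of Egr1, and below near that of Fosl2, follow from the measure, which includes the difference between groups. Spry4 encodes a feedback inhibitor of receptor tyrosine kinase signalling. For Fosl2 they were Mal (0.0329), LOC100861978 (0.0353), Pgap3 (0.0399), Bcl3 (0.0400) and Ube2h (0.0429), with log2 changes of -0.72, -0.67, -0.71, -0.65 and -0.67. Mal is a membrane raft protein of epithelial cells, and Bcl3 a nuclear cofactor of NF-kB.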

How the data were processed

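Total RNA of 3 AC9 and 3 VECTOR samples was measured on Clariom S arrays, 1 per sample. The deposited values are log2 intensities per probe set, which the authors made with RMA (background correction, quantile normalization, probe summary), per the submitters' processing notes; the sources used here name no software, version or genome build. All 6 columns matched a sample. Of 28846 probe sets, 19572 carry 1 gene symbol in GEO's platform annotation, and the brightest probe set was kept for each of 55 genes with several, leaving 19505 genes. AC9 was compared with VECTOR by linear models in R 4.3.3 with limma 3.58.1 (eBayes after lmFit, constant prior, two-sided, no filter), with Benjamini-Hochberg adjustment over all genes and a threshold of 0.05; the fit was tested on simulated data. Where 1 group was under the negative-control bound, a fold is given as a minimum: the mean of the brighter group against, per dim array, the higher of its own 90th percentile of negative controls and the gene's value. Named genes are the 10, Adcy9, and per list up to 4 called genes with the largest change and 1 group above the bound; the rule for likeness took 5 genes each for the called factors with the largest rise and fall. The factors, lists and rules were chosen with earlier results of these data known. Pair ratios were added afterwards. The number of arrays limits the precision. Promoter sequences come from RefSeq, GRCm38.p6.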

Additional observations from a re-analysis of the deposited data

How the results depend on the processing

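Each of the 10 genes kept its direction under all 15 alternative settings, and 8 stayed on the same side of the threshold in each; the exceptions were Jun and Jund. The number called lower was 2, with Jund added, under a trended robust prior, repeated quantile normalization, array weights, or with dim genes left out (under the 40th percentile or under the bound in both groups), and 1 to 2 with an array left out; the adjusted p of Jund ran from 0.000451 to 0.159. The number called higher was 4 to 5 with an array left out and 4 at an adjusted p of 0.01, where Jun (0.0182) dropped out. Genes called over the whole array numbered 968 to 1491 higher and 1206 to 1534 lower with an array left out, fewest without AC9 replicate 1 (1061 higher without AC9 replicate 3), against 1612 and 1812 with all arrays, and 729 and 941 at an adjusted p of 0.01. Centring the arrays on their medians gave 1861 higher and 1650 lower, with a shift of 0.02 in the median log2 change. Same-numbered arrays did not deviate together (correlations of 0.01, 0.08 and 0.01), and with the replicate number as a block 1410 genes were higher and 1652 lower and the same counts of the 10, 5 and 1, were called. With the 95th percentile of the negative controls as the bound, 9 of the 10 lay above it in both groups, Fos not. Leaving out 1 array, called AP-1 targets numbered 11 to 15 higher and 3 to 5 lower, and upstream genes 1 to 3 and 0 to 1. Under a trended robust prior 6 bZIP partners, 14 other immediate early genes and 5 upstream genes rose; at an adjusted p of 0.01 these were 0, 5 and 1.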
